A study of Rattus norvegicus with 11 samples.

Results

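Splicing factor genes encode the proteins that remove introns from newly made transcripts. The 57 genes described here were found by symbol: subunits of the small nuclear ribonucleoproteins (symbols beginning Snrp), of the SF3A and SF3B complexes (Sf3a, Sf3b), the Prpf factors, the numbered SR proteins (Srsf), the hnRNP proteins (Hnrnp), U2 auxiliary factor (U2af), U2surp and Rbm25. They are 57 of 17245 genes with a probe set of their own on the array, and where a gene had several, its brightest probe set on average was read. The group was chosen by its measured spread between rats of 1 group and by its FPI minus sham values, both known beforehand, so its spread is given as a description with no test.

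RNA came from the left dentate gyrus, hilus included, of adult male Sprague-Dawley rats 90 days after surgery, with 1 array per rat. The FPI group held 6 rats with traumatic brain injury by lateral fluid-percussion, a pressure pulse given to the exposed dura over the left hemisphere. The sham group held 5 rats that had the same anesthesia, based on pentobarbital and chloral hydrate, and the same opening of the skull but no pulse, so both groups share the surgery. The labels call the rats of a group separate biological replicates. The injury is known to remove part of the hilar neurons while most granule cells remain. In bulk RNA of such tissue, fewer cells of a type and less RNA per cell cannot be told apart.

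Each intron is recognised in steps. The U1 particle binds the 5′ splice site, U2 auxiliary factor binds the end of the intron and brings the U2 particle to the branch point, and the tri-snRNP of U4, U5 and U6 then joins before the Prp19 complex helps to form the active center. SR proteins mostly bind exons and favor their use, whereas hnRNP proteins coat the transcript and often oppose it. Neurons rely on this balance for many brain-specific exons.

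All values are log2 signals, on which a difference of 1 multiplies the signal by 2, and log2 fold changes are FPI minus sham. The array medians lay between 5.26 and 5.35 over the 11 rats. The mean of a member ranged from 4.27 for Snrpf to 9.96 for Hnrnpk. The background of the study was read here as the lowest value among its reported results, and may differ from the one it used. By this reading 0 member values lay below background, so all 57 members passed the filter on low values. The 4 granule cell markers Prox1, C1ql2, Dsp and Calb1 were all above background in every rat, with a summed linear signal of 1436 to 1795 in FPI and 1614 to 1747 in sham rats. Of the 17905 probe sets tested with limma, 27 passed an adjusted p of 0.05, which is 0.151%.

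Within the groups, 3 rats stood apart. After the mean of its group was taken from every value, the first component of all probe sets other than those of the members held 63.7% of the variance between rats of a group. FPI rat 1, FPI rat 3 and sham rat 2 had scores of 0.49, 0.42 and 0.45 on it. The remaining rats lay between -0.34 and -0.06 in the FPI group and between -0.31 and 0.06 in the sham group. By construction the scores average 0 in each group, so the component describes spread inside the groups. They cannot show whether what underlies it differs between FPI and sham rats. What these 3 rats share besides their values is not given in the sources used here.

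The splicing factor genes split on this component. A member is said here to go with the component where at least 50% of its within-group variance lay on it and its signal was high in the 3 rats that stood apart, and against it where the signal was low in them. By this measure 26 members went with the component, 12 went against it and 19 did neither. The same counts among the other 17829 probe sets were 3838, 2867 and 11124. Brighter probe sets followed the component more often. Within the interquartile range of the members' mean levels, 37.4% of 4608 probe sets went with it and 23.1% against it, compared with 45.6% and 21.1% of the members. The members nearest to the limit were Snrpg at 50.8% and Snrpb2 at 53.1% inside it, and Sf3b2 at 47.7% and Sf3a1 at 44.5% outside it. Summed over the 57 members, 81.2% of the within-group variance lay on the component. Other sets of genes had similar shares, with 77.6% for the level-matched probe sets, 82.2% for 29 proteasome genes and 79.0% for 57 cytosolic ribosomal protein genes.

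**Figure D1:**
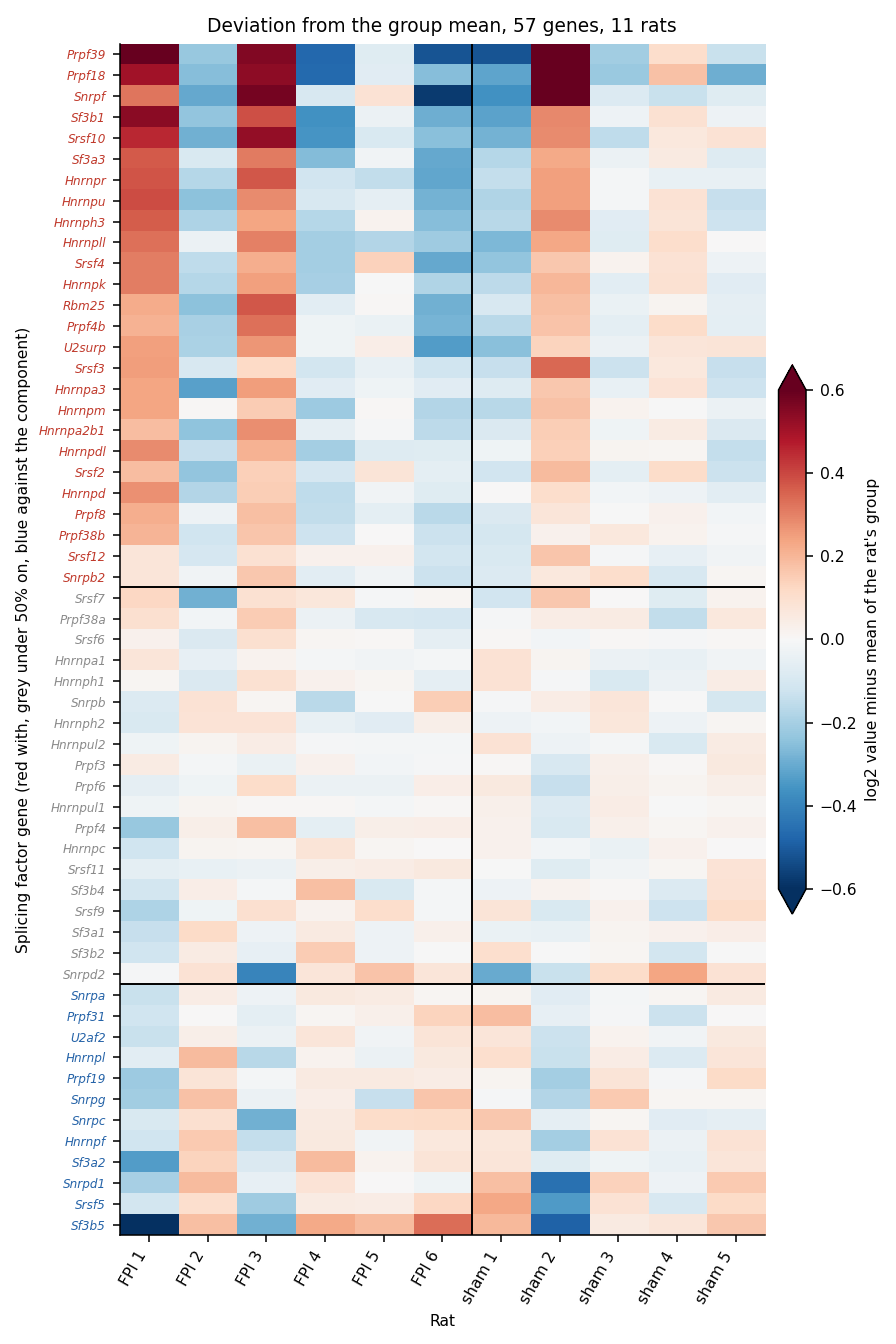
Each row is 1 of the 57 splicing factor genes and each column 1 rat (6 FPI rats left, 5 sham rats right), colored by its log2 value minus the mean of its group. FPI 1, FPI 3 and sham 2 are red for all 26 genes above the upper line and blue for all 12 genes below the lower line.

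Every one of the 26 members with the component was above its group mean in FPI rat 1, FPI rat 3 and sham rat 2, and every one of the 12 members against it was below its group mean there. The median deviation of the 26 was 0.28 in FPI rat 1, 0.26 in FPI rat 3 and 0.18 in sham rat 2. For the 12 it was -0.13, -0.073 and -0.15 in the same rats. At the other end stood FPI rat 6, with 0 of the 26 above the group mean and a median of -0.23, followed by FPI rat 2, with 1 of 26 and -0.18, and FPI rat 4, with 1 of 26 and -0.14. Sham rat 1 likewise had 1 of 26 above the mean and a median of -0.16. These directions follow from the way both sets were formed, and their sizes are the description.

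Shown first are the promoters of the 2 members with the strongest loading in each direction, because their signals mirrored each other from rat to rat. The windows are of RefSeq on build GRCr8, 250 bases before to 50 bases after the gene start, all on the plus strand. They are chr6:88824990-88825289 for Prpf39, chr17:78539640-78539939 for Prpf18, chr1:9176939-9177238 for Sf3b5 and chr6:106336506-106336805 for Srsf5. Prpf39 and Prpf18 went with the component, and Sf3b5 and Srsf5 against it. Capitals mark CCGGAAG or its reverse complement CTTCCGG, the core bound by ETS factors.
Prpf39: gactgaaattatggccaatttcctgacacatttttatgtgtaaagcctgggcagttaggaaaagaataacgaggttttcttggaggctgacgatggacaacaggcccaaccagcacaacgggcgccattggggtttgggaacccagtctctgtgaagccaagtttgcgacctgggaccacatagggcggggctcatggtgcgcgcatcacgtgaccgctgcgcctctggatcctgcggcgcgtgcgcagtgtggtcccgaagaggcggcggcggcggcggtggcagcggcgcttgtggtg
Prpf18: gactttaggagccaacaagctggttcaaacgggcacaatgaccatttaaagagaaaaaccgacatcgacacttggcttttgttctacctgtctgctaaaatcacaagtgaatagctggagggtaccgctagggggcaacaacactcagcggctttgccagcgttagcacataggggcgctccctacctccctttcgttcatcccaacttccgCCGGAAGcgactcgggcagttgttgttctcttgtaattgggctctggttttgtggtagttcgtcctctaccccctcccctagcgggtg
Sf3b5: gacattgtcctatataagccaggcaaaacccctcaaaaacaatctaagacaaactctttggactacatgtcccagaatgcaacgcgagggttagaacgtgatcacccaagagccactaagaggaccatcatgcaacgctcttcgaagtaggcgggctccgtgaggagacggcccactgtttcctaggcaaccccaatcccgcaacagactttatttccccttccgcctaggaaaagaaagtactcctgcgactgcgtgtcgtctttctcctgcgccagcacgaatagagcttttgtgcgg
Srsf5: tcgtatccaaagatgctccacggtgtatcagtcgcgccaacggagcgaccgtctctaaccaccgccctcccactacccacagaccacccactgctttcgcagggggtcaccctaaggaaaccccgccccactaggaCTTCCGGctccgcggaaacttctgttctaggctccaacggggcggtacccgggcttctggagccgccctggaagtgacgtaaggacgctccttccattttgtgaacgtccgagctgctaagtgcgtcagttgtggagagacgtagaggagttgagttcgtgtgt

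A window was found for 54 of the 57 members. CCGGAAG, on either strand, was in 16 of these 54 windows (29.6%), against 9.22% of 27457 promoter windows of the same length in the table. It was in 5 of 25 members with the component, in 6 of 11 against it and in 5 of 18 of the others. One printed window of each pair holds it, Prpf18 on the plus strand and Srsf5 on the minus strand. The other motifs searched on both strands were TGACGTCA (the CRE), GCGCATGC (the core of the NRF1 site), AAGATGGCG (a YY1 core) and TATAAA, found in 1, 3, 3 and 5 of the 54 windows, against 1.91%, 2.66%, 1.93% and 14.3% of all windows. The windows of members held a median of 24 CG pairs, against 7 over all windows, and the members with and against the component had the same median of 24. A match is a run of letters and shows no binding.

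The 2 members of the U1 particle both went against the component. Snrpa, which binds a stem loop of U1 RNA, had log2 values of 7.03, 7.21, 7.13, 7.23, 7.21 and 7.18 in FPI rats 1 to 6, against 7.12, 7.03, 7.09, 7.11 and 7.15 in sham rats 1 to 5. The range was small in both groups, and FPI rat 1 and sham rat 2 were the lowest of their groups. Snrpc, another U1 protein, spanned 0.40 in FPI and 0.23 in sham rats, with FPI rat 3 the lowest of all.

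The Sm ring is the core that U1, U2, U4 and U5 share, and 5 of its genes were members. Snrpf went with the component while Snrpd1 and Snrpg went against it, so genes of 1 ring of proteins deviated in opposite directions in the same rats. Snrpd1 had values of 8.80, 9.19, 8.95, 9.09, 9.0 and 8.98 in FPI rats 1 to 6, against 8.98, 8.34, 8.93, 8.76 and 8.95 in sham rats 1 to 5. Sham rats 2 and 4 were below every FPI rat, and the other sham rats overlapped with the FPI rats. Snrpf had values of 4.50, 3.87, 4.75, 4.08, 4.26 and 3.60 in FPI rats 1 to 6, against 4.02, 5.03, 4.30, 4.25 and 4.31 in sham rats 1 to 5. Here sham rat 2 was the highest rat, and Snrpf had the lowest mean signal of all members. Snrpd2 spread without following the component. Its SD was 0.20 in FPI and 0.21 in sham rats with 12.0% of the variance on the component, and FPI rat 3 and sham rat 1 were its lowest rats at 6.5 each.

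The U2 particle recognises the branch point through the SF3A and SF3B complexes. Sf3b1, the large SF3B subunit that clamps the branch point, had values of 8.74, 7.97, 8.59, 7.84, 8.17 and 7.91 in FPI rats 1 to 6, against 7.92, 8.53, 8.21, 8.33 and 8.21 in sham rats 1 to 5. The 3 rats that stood apart were the highest rats of their groups, and 95.5% of the variance lay on the component. Sf3a3, an SF3A subunit, was likewise highest in these rats, with values of 7.80, 7.34, 7.74, 7.17, 7.41 and 7.13 in FPI rats 1 to 6, against 7.37, 7.77, 7.51, 7.60 and 7.47 in sham rats 1 to 5. Sf3b5, the smallest SF3B subunit, had values of 7.50, 8.33, 7.86, 8.38, 8.34 and 8.49 in FPI rats 1 to 6, against 8.08, 7.41, 7.94, 7.96 and 8.05 in sham rats 1 to 5. FPI rat 1, FPI rat 3 and sham rat 2, in which Sf3b1 was highest, were the lowest rats of their groups here, with 89.5% of its variance on the component. Sf3b1 and Sf3b5 are part of 1 complex, and so are Sf3a3 and Sf3a2, which also lay on opposite sides. Of the 8 members of this particle, 3 went with the component, 2 against it and 3 did neither, and the SD was larger in FPI than in sham rats in all 8.

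**Figure D2:**
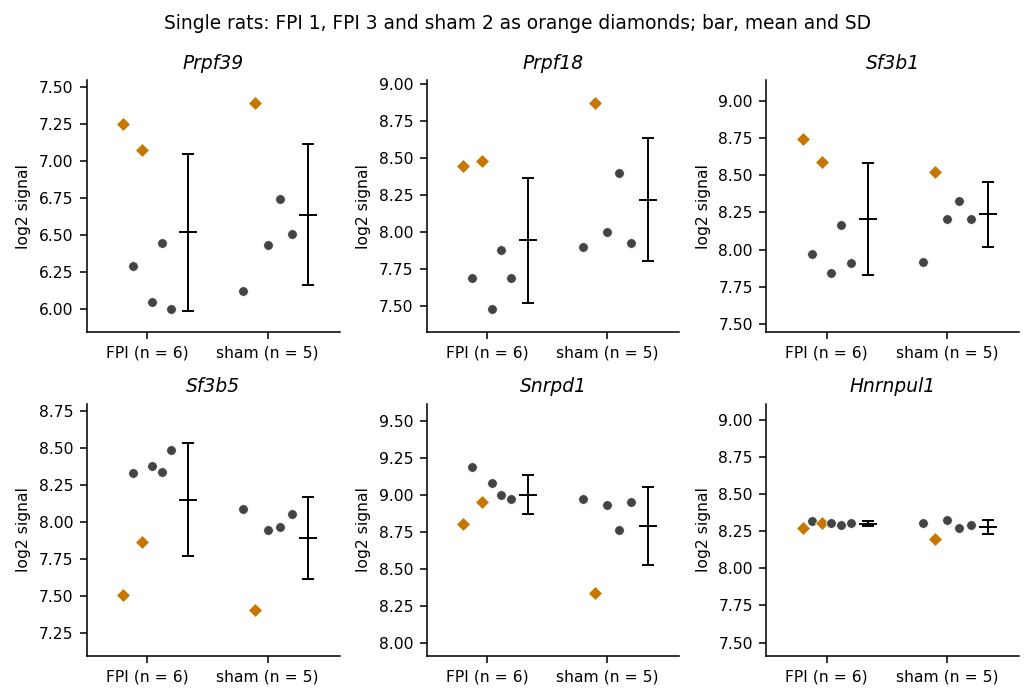
Log2 signal in each of the 6 FPI rats (left of each panel) and 5 sham rats (right) for 6 genes, with orange diamonds for FPI 1, FPI 3 and sham 2 and a bar for mean and SD, all panels spanning the same log2 height. The diamonds are at the top for Prpf39, Prpf18 and Sf3b1, at the bottom of each group for Sf3b5 and among or close to the other rats for Hnrnpul1.

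U2af2, the large subunit of U2 auxiliary factor that binds the pyrimidine tract, went against the component with little spread. Its values were 8.53, 8.70, 8.63, 8.74, 8.65 and 8.74 in FPI rats 1 to 6, against 8.68, 8.48, 8.63, 8.59 and 8.67 in sham rats 1 to 5. FPI rat 1 and sham rat 2 were again the lowest of their groups. U2surp, a U2-associated protein with an RNA-binding domain, went with the component and had values of 8.32, 7.88, 8.34, 8.05, 8.12 and 7.74 in FPI rats 1 to 6, against 7.60, 7.98, 7.81, 7.92 and 7.92 in sham rats 1 to 5. Unlike most of the 26 members on that side, its FPI values were mostly above the sham values, although the groups overlapped.

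Among the 5 tri-snRNP members only Prpf8 went with the component. Prpf8, the scaffold of the catalytic center, had values of 9.61, 9.37, 9.58, 9.25, 9.34 and 9.24 in FPI rats 1 to 6, against 9.32, 9.48, 9.40, 9.43 and 9.39 in sham rats 1 to 5. Its SD was 0.162 in FPI and 0.0578 in sham rats. Prpf3, a protein of the paired U4 and U6 RNAs, was one of the steadiest members, with values of 5.93, 5.87, 5.84, 5.91, 5.87 and 5.88 in FPI rats 1 to 6, against 5.88, 5.78, 5.91, 5.88 and 5.94 in sham rats 1 to 5. The lowest value was 5.78 in sham rat 2 and the highest 5.94 in sham rat 5, and the component held 13.1% of the variance.

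The other Prpf factors held the member with the most spread. Prpf39, the counterpart of a yeast U1 protein, had values of 7.25, 6.29, 7.08, 6.05, 6.45 and 6.0 in FPI rats 1 to 6, against 6.12, 7.39, 6.43, 6.74 and 6.51 in sham rats 1 to 5. That is a range of 2.38-fold on the linear scale within the FPI group, with an SD of 0.528 in FPI and 0.476 in sham rats, and 99.0% of the variance lay on the component. Prpf18, which acts at exon ligation, had values of 8.45, 7.69, 8.48, 7.48, 7.88 and 7.69 in FPI rats 1 to 6, against 7.90, 8.87, 8.0, 8.40 and 7.93 in sham rats 1 to 5. The 3 rats that stood apart were again highest, and sham rat 4 was close to the 2 FPI rats among them. Prpf38a, a factor needed to activate the spliceosome, had values of 6.16, 6.04, 6.21, 6.03, 5.96 and 5.96 in FPI rats 1 to 6, against 5.95, 6.0, 6.01, 5.81 and 6.02 in sham rats 1 to 5, with overlapping groups and 33.7% of the variance on the component. Prpf19, the ubiquitin ligase that gives the Prp19 complex its name, went against the component with 63.2%.

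SR proteins numbered 10, with 5 members with the component, 1 against it and 4 neither. Srsf10, which represses splicing when it loses its phosphates, had values of 7.24, 6.49, 7.31, 6.43, 6.69 and 6.53 in FPI rats 1 to 6, against 6.58, 7.14, 6.71, 6.93 and 6.95 in sham rats 1 to 5. FPI rats 1 and 3 were the highest of all rats, and sham rat 2 the highest sham rat. Srsf5 was the single SR protein against the component (78.4% of its variance), whereas Srsf3 with 84.8% and Srsf4 with 84.1% went with it. Srsf6 was nearly flat, with an SD of 0.064 in FPI and 0.010 in sham rats.

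Of the 18 hnRNP members, 10 went with the component, 2 against it (Hnrnpf and Hnrnpl) and 6 neither. Hnrnpk, a protein that binds runs of C and had the highest mean of all members, had values of 10.24, 9.76, 10.18, 9.73, 9.93 and 9.75 in FPI rats 1 to 6, against 9.83, 10.19, 9.93, 10.08 and 9.92 in sham rats 1 to 5. The component held 96.0% of its variance. Hnrnpa1, a general splicing repressor, had values of 9.36, 9.24, 9.32, 9.28, 9.28 and 9.28 in FPI rats 1 to 6, against 9.35, 9.28, 9.23, 9.22 and 9.24 in sham rats 1 to 5. Hnrnpul1, a relative of Hnrnpu, had values of 8.28, 8.32, 8.31, 8.31, 8.29 and 8.31 in FPI rats 1 to 6, against 8.31, 8.20, 8.32, 8.28 and 8.29 in sham rats 1 to 5. Both genes had pooled within-group SDs under 0.05, and in both the FPI and sham values overlapped. Hnrnph1, which binds runs of G, had values of 8.99, 8.89, 9.07, 9.01, 8.99 and 8.93 in FPI rats 1 to 6, against 8.97, 8.87, 8.79, 8.85 and 8.93 in sham rats 1 to 5. Most FPI rats were above most sham rats, but sham rats 1 and 5 lay among the FPI rats.

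Rbm25, an RNA-binding protein that joins splicing complexes and is known in human cells for its effect on the choice of Bcl-x isoforms, had values of 8.71, 8.24, 8.86, 8.43, 8.49 and 8.20 in FPI rats 1 to 6, against 8.44, 8.72, 8.49, 8.55 and 8.48 in sham rats 1 to 5. FPI rats 1 and 3 and sham rat 2 were the highest of their groups, with 79.6% of the variance on the component.

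The spread of the members as a set was larger than that of the array, and most of the excess lay on the component. The median pooled within-group SD was 0.135 over the 57 members, against 0.100 over the other probe sets tested and 0.118 over 4608 probe sets within the members' interquartile range of mean level. With the component removed, the medians were 0.0746 for the members and 0.0762 for the other probe sets. The 6 largest pooled SDs were those of Prpf39 (0.51), Prpf18 (0.42), Snrpf (0.40), Sf3b5 (0.34), Srsf10 (0.33) and Sf3b1 (0.32). The 3 smallest were those of Hnrnpul1 (0.035), Prpf3 (0.046) and Hnrnpa1 (0.047). The median SD was 0.15 in FPI and 0.10 in sham rats, and it was larger in FPI rats for 41 of the 57 members, as it was for 11447 of the other 17829 probe sets. The FPI group held 2 of the 3 rats that stood apart and the sham group 1.

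**Figure D3:**
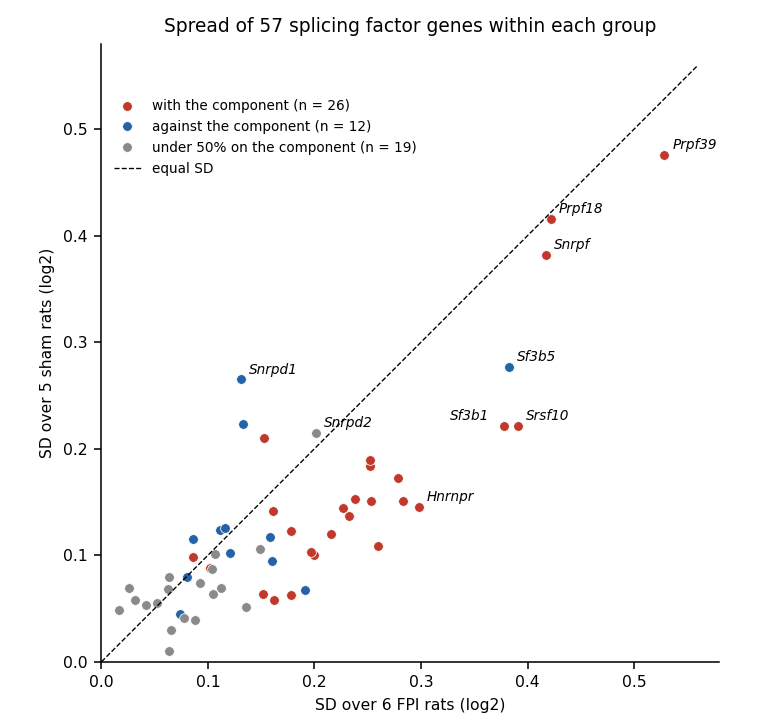
SD over the 6 FPI rats (horizontal) against SD over the 5 sham rats (vertical) for each of the 57 genes, on the log2 scale, colored by their relation to the within-group component. Of the genes, 41 lie on the FPI side of the line of equal SD, and Prpf39, Prpf18 and Snrpf have the largest SDs in both groups.

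The relation between members was weaker, but of the same sign, without the 3 rats. Over all 11 rats the median Pearson correlation of deviations was 0.87 among the 325 pairs within the 26 members, 0.72 among the 66 pairs within the 12, and -0.78 across the 312 pairs of one of each. Over the 8 remaining rats, with group means taken anew, these medians were 0.57, 0.36 and -0.51. The 8 rats were also used to form both sets, and rats share arrays and scaling across all genes, so these are descriptions. In the 8 rats, 26 of the 26 members with the component still had a positive slope on the score and 11 of the 12 against it a negative one. The median SD of the 57 members without the 3 rats was 0.0828, and 51.3% of their variance lay on a component taken anew. That component held 38.8% of the variance of the other probe sets.

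Other probe sets of the same genes, which the choice of members did not use, deviated mostly as the chosen one did. There were 19 such probe sets of 10 genes. Their deviations had the same sign on the component in 18 cases, and their median correlation with the chosen probe set was 0.96 over 11 rats and 0.91 over the 8 rats. Of the 19, 8 belonged to Hnrnpa3, and without them the medians were 0.83 and 0.78. Those of Hnrnpa3 correlated at 0.96 to 0.99 with the chosen one over 11 rats, and at 0.90 to 0.96 over 8. A second probe set of U2surp had an SD of 0.67, larger than any chosen one, and a second one of Rbm25 an SD of 0.46, each with 99.0% of the variance on the component. The opposite sign was that of 1 other probe set of Hnrnpa1, whose chosen probe set hardly loaded on the component. The second probe set of Hnrnpa2b1 did not follow it, with 0.17% of its variance there against 78.7% for the chosen one. Probe set numbers on this array mostly follow the chromosomes, as 96.3% of the probe sets of a single gene were numbered among genes of their own chromosome. The chosen probe sets of Rbm25, Snrpc, Srsf3, Hnrnpa1, Hnrnpa3, Hnrnpk and Hnrnpf were not, and neither were 10 of the 19 others. These 10 include the second probe set of U2surp and most of the others of Hnrnpa3. Several hnRNP genes have near-identical copies elsewhere in rodent genomes. Whether the signal of these 7 members, hnRNP genes or not, is shared with a copy was not tested. Nor was it tested whether the probe sets of Hnrnpa3 read separate sequences, on which their high correlations depend. Without these 7 the median SD was 0.129 and the share of variance on the component 81.4%.

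FPI and sham rats were then compared gene by gene, to learn which splicing factor genes differ 90 days after the injury. At an adjusted p of 0.05 in limma, 0 of the 57 members differed, against 0.151% of all probe sets tested. At an unadjusted p under 0.05, 1 member was higher in FPI rats (Hnrnph1) and 0 were lower, against 4.96% higher and 1.87% lower over all probe sets. In none of the 57 did the groups separate without overlap, as they did in 1.04% of all probe sets. Among the marker lists the summed signal of the 4 interneuron markers did separate, at 1075 to 1507 in FPI and 1522 to 1761 in sham rats, and its part in the differences of the members was not tested. The members had 29 positive and 28 negative log2 fold changes with a median of 0.0020.

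The 4 members with the lowest p had small differences. Hnrnph1 averaged 8.98 ± 0.062 in FPI and 8.88 ± 0.069 in sham rats (SD, n = 6 and 5; log2 fold change 0.10, standard error 0.0434, limma adjusted p = 0.716). U2surp averaged 8.07 ± 0.24 in FPI and 7.85 ± 0.15 in sham rats (log2 fold change 0.23, standard error 0.111, limma adjusted p = 0.764). Snrpd1 averaged 9.0 ± 0.13 in FPI and 8.79 ± 0.27 in sham rats (log2 fold change 0.21, standard error 0.110, limma adjusted p = 0.792). Prpf38a averaged 6.06 ± 0.10 in FPI and 5.96 ± 0.087 in sham rats (log2 fold change 0.10, standard error 0.0576, limma adjusted p = 0.810). None of these differences passed the test after adjustment over all probe sets. The second probe set of U2surp stood at -0.24 on the log2 scale, FPI minus sham, opposite to the chosen one, and with the mean of the probe sets of each gene the value for U2surp was -0.0048. Second probe sets of other members also differed from the chosen ones, with -0.37 against -0.046 for Rbm25, 0.053 against -0.14 for Srsf3 and 0.16 against -0.012 for Hnrnpa2b1. Their limma adjusted p-values were 0.85, 0.95 and 0.73. In Rbm25 and Srsf3 the second probe set, unlike the chosen one, was numbered among its own chromosome. In U2surp the chosen one was so numbered and the second one was not, and their mean signals were 7.97 and 5.93. That of Prpf18 kept the sign, at -0.19.

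The members with the largest spread had differences within that spread. The log2 fold change of Prpf18 was -0.27 (standard error 0.22, limma adjusted p = 0.88), and that of Sf3b5 was 0.26 (standard error 0.18, limma adjusted p = 0.86). Prpf39, Snrpf, Srsf10 and Sf3b1 had -0.12, -0.20, -0.079 and -0.033, each below its standard error. Sf3b1 was at 8.20 ± 0.38 in FPI and 8.24 ± 0.22 in sham rats.

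**Figure D4:**
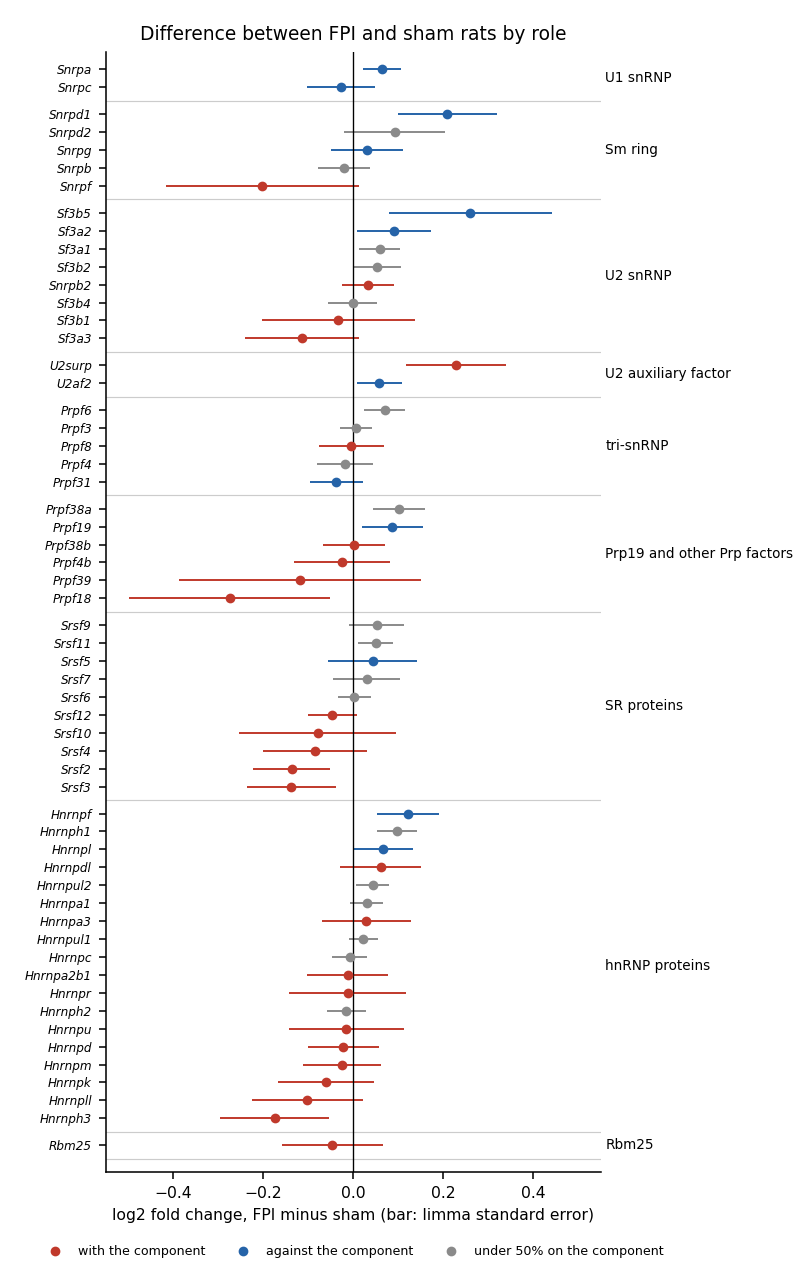
Log2 fold change, FPI minus sham, of each of the 57 genes with the limma standard error as a bar, grouped by role and colored by the relation to the within-group component. No gene passed an adjusted p of 0.05; red points lie mostly left of 0 (21 of 26) and blue points mostly right (10 of 12).

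The sign of the difference went with the side of the component. Of the 26 members with it, 21 had a negative log2 fold change (80.8%, median -0.040), and of the 12 against it 10 had a positive one (83.3%, median 0.065). The other probe sets on the same sides showed nearly the same shares, with 2850 of 3838 negative (74.3%) and 2246 of 2867 positive (78.3%). With each array centred on its median, 22 of the 26 were negative and 10 of the 12 positive, and with a second quantile normalization 21 and 10. With a replicate block, 13 of the 26 were negative and the median was 0.0017, so the direction was lost there, and 9 of the 12 were positive. Centring the arrays also turned the balance of all calls at an unadjusted p under 0.05, which were 888 higher and 334 lower as deposited, 502 and 678 after centring, and 668 and 487 after the second normalization.

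Taking the component into the fit lowered the standard errors of the members that followed it. The log2 fold changes could not move, because the scores have equal group means by construction. This fit therefore does not remove a group difference that lies along the component. With the score as a covariate, added after the data had been seen, 4 of the 57 members passed an adjusted p of 0.05 in limma, against 5.27% of all probe sets. Sf3b5 and U2surp were higher in FPI rats with log2 fold changes of 0.26 and 0.23 (adjusted p = 0.029 and 0.042), and Hnrnph3, a relative of Hnrnph1 named here for this call, and Prpf18 lower with -0.17 and -0.27 (adjusted p = 0.016 and 0.023). The score was computed from the same arrays, so the residual spread in this fit is lowered by construction. Without the 3 rats that stood apart, also added after the data had been seen, 1 member passed, against 1.51% of all probe sets. This was Sf3b5, higher by 0.37 on the log2 scale in FPI rats (limma adjusted p = 0.013). On the scores, which were centred within each full group, the 4 remaining FPI rats averaged -0.23 and the 4 remaining sham rats -0.11. The means forced to be equal by centring are thus unequal in that fit. There 25 of the 26 members with the component had negative values, and whether this follows from the scores was not tested. Hnrnph3 had -0.25 (adjusted p = 0.096), Prpf18 -0.37 (adjusted p = 0.12) and U2surp 0.13 (adjusted p = 0.48) there.

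Other genes with a part in splicing were read from a list, which is not complete. This list of 118 genes, called other spliceosome genes here, has symbols that the rule for the members does not match, and 106 were measured. It also holds regulators of splicing and RNA-binding or export genes, such as those of the Rbfox, Celf, Clk and Thoc families, and no Snrnp gene. Rbfox3 is also one of the neuron markers below. Of these, 45 went with the component (42.5%), 13 against it and 48 neither, with a median SD of 0.10. The mean deviation of the list was 0.075 in FPI rat 1, 0.13 in FPI rat 3 and 0.056 in sham rat 2, and lowest in FPI rat 6 at -0.093. Probe sets matched to the members in level had 0.035, 0.084, 0.042 and -0.062 in these rats. In the comparison of FPI with sham rats, 0 of the 106 passed an adjusted p of 0.05 in limma, and 6 were higher (5.66%) and 3 lower (2.83%) at an unadjusted p under 0.05, near the 4.96% and 1.87% of all probe sets.

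The 4 of them with the lowest p each had under 50% of their variance on the component. Syf2, which joins the Prp19 complex, was at 7.19 to 7.38 in FPI and at 6.91 to 7.19 in sham rats, with the highest sham rat level with the lowest FPI rat (log2 fold change 0.22, adjusted p = 0.29 from limma). Lsm7, a protein of the ring on U6 RNA, was at 6.73 to 6.85 in FPI and at 6.85 to 7.0 in sham rats (log2 fold change -0.12, adjusted p = 0.45). Ddx39b, a helicase of splicing and mRNA export, was at 9.48 to 9.59 in FPI and at 9.59 to 9.76 in sham rats (log2 fold change -0.12, adjusted p = 0.48). In both Lsm7 and Ddx39b the highest FPI rat was just below the lowest sham rat. Cdc5l, a core protein of the Prp19 complex, was at 6.91 to 7.19 in FPI and at 6.82 to 6.98 in sham rats (log2 fold change 0.17, adjusted p = 0.50), with 48.6% of its variance on the component.

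Gene lists outside splicing also departed from their group means in the same rats, and their part in the deviations of the members was not tested. Part of this was shared by the array. Probe sets matched to the members in level had mean deviations of 0.035, 0.084 and 0.042 in FPI rat 1, FPI rat 3 and sham rat 2. Over all probe sets other than the members these were -0.0055, 0.062 and 0.0095. The 29 measured proteasome genes had mean deviations of 0.076, 0.11 and 0.038 in FPI rat 1, FPI rat 3 and sham rat 2, and 11 heat shock genes 0.083, 0.13 and 0.12. The 57 cytosolic ribosomal protein genes went slightly the other way in FPI rat 1 and sham rat 2, at -0.057 and -0.056. The 2 measured nuclear-retained RNAs, Meg3 and Snhg11, were low there, with a mean of -0.43 in FPI rat 1, -0.066 in FPI rat 3 and -0.28 in sham rat 2.

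Markers of cell types also differed in the 3 rats. The 4 neuron markers Rbfox3, Snap25, Syt1 and Nefl all went with the component, and their mean deviations were 0.15, 0.14 and 0.095 in FPI rat 1, FPI rat 3 and sham rat 2. Their summed linear signal ranged from 5569 to 6807 in FPI and from 5753 to 6951 in sham rats. Of the 5 astrocyte markers, 3 (Aqp4, Aldoc and Slc1a3) went with the component, and Gfap and Gja1 did neither. The list had mean deviations of 0.10, 0.090 and 0.32 in FPI rat 1, FPI rat 3 and sham rat 2. Its summed signal was 4365 to 5036 in FPI and 3627 to 5157 in sham rats. Gfap by itself separated the groups, at 10.10 to 10.36 in FPI and 9.39 to 9.45 in sham rats. Its log2 fold change was 0.83 (limma adjusted p = 1.43e-05), and its part in the values of the members was not tested. The 5 microglia markers had 0.45 in sham rat 2, but -0.058 and 0.028 in FPI rats 1 and 3, and 0 of 5 went with the component. Their summed signal was 603 to 738 in FPI and 457 to 888 in sham rats. Other lists went the other way or followed no direction. The 3 CA pyramidal markers had mean deviations of -0.24, -0.019 and -0.26 in the same rats, with Fibcd1 and Pou3f1 against the component and Neurod6 neither, and a summed signal of 499.8 to 620 in FPI and 525.7 to 636 in sham rats. The 4 measured oligodendrocyte markers had -0.10, -0.13 and -0.033, with a summed signal of 1465 to 1905 in FPI and 1488 to 1666 in sham rats. Gad1, Gad2, Pvalb and Sst, the 4 interneuron markers, had 0.076, -0.012 and 0.056. Calcrl, known as a mossy cell marker in mice, deviated by 0.43, 0.41 and 0.80, whereas Calb2, which marks mossy cells in mice but interneurons in this tissue of the rat, deviated by -0.14, 0.047 and 0.13. None of the markers measured was at background in all rats.

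**Figure D5:**
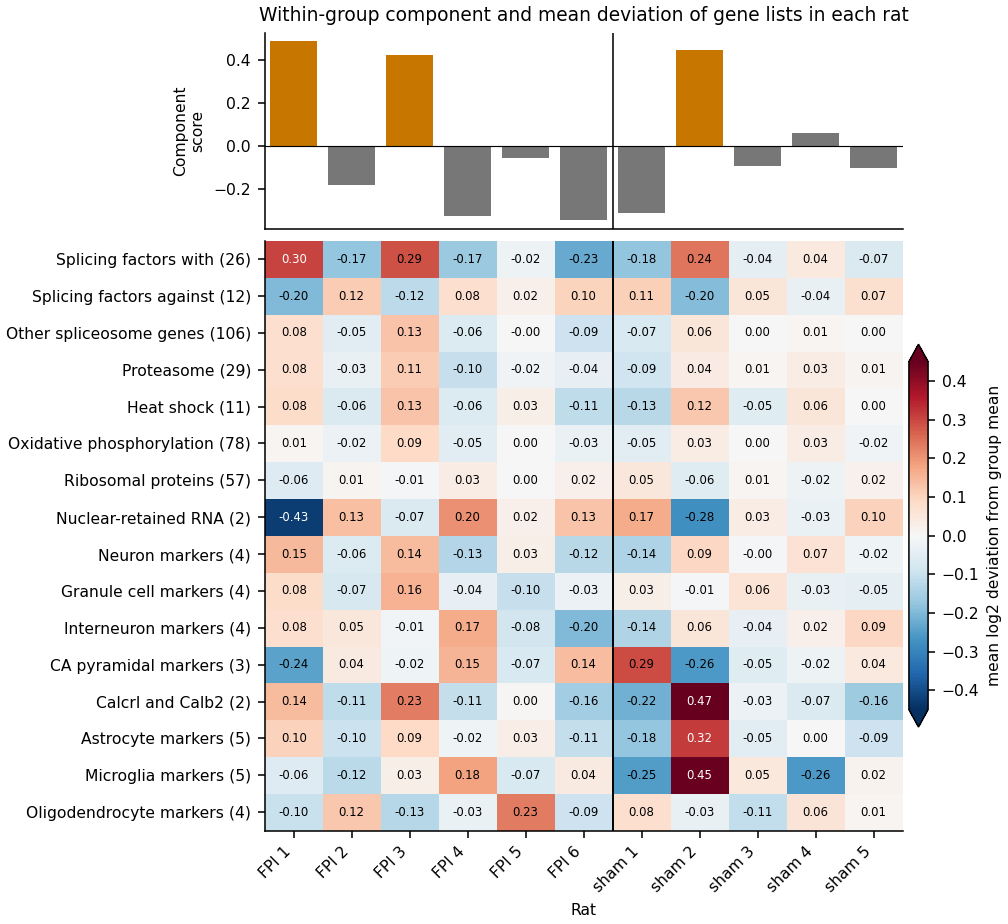
Upper panel, score of each rat on the within-group component (orange for FPI 1, FPI 3 and sham 2). Lower panel, mean log2 deviation from the group mean of each list of genes (number of measured genes in brackets) in the 6 FPI rats (left) and 5 sham rats (right): the 26 splicing factor genes with the component reach 0.30, 0.29 and 0.24 in the orange rats, and the microglia markers and the pair of Calcrl and Calb2 are highest in sham 2.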

How the data were processed

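Total RNA of the left dentate gyrus of 6 FPI and 5 sham rats was hybridized to Affymetrix Rat Gene 1.1 ST arrays, 1 array per rat. The deposited log2 values of 29214 probe sets came from Robust Multi-array Average normalization, which the authors ran in the oligo package. It corrects background, gives the probe values of all arrays 1 distribution and then summarizes the probes of each set. The submitters' processing notes give oligo version 1.30.0, and the methods of the study name another version. Equal distributions of the probe values mean that every value is relative to the other genes of its array, and much of a shift shared by most genes would not be seen. The summarized values were not fully equal, with array medians of 5.26 to 5.35, and centring them changed the balance of calls.

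Following the methods of the study, values below its background, read as the lowest value of its table of results, were raised to it, and a probe set of a single gene was removed if over 5 arrays were not above it, which took out 739. The 17905 remaining probe sets (16572 genes) were tested with limma 3.58.1 (lmFit and eBayes, two-sided) in R 4.3.3, and p-values were adjusted over all these probe sets (Benjamini-Hochberg, threshold 0.05). The platform annotation paired 18644 of all probe sets with a single symbol and 962 with several, and 9608 were unnamed here. The members and lists were chosen with earlier results of these data known. The within-group component is the first singular vector of the tested probe sets other than those of member genes, after removal of group means, computed with NumPy 2.4.6 in Python 3.11.15. The share of a gene on it is the part of its within-group sum of squares along that vector. Promoter windows of 300 bases came from a RefSeq table of build GRCr8, matched by gene ID. Where a gene had several windows the first was used. The number of arrays limits the precision. No 2 arrays were copies (correlations of 0.984 to 0.999). The fit was also run on simulated data with independent noise for each probe set. Such data lack the component shared by these arrays and do not show how the fit behaves with it.

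Genes were named by a rule. It took the 4 members with the lowest p, the 6 with the largest and 3 with the smallest pooled SD, in each role group the member with the largest share on the component, and up to 4 other spliceosome genes with the lowest p. Other members are examples with single values.

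As alternatives, the floor and filter were dropped, a mean of at least 5 was asked for, and the arrays were centred on their medians or quantile-normalized again. The fit was changed to an intensity trend with robust prior variances, to array weights, to a replicate block and to the one-way analysis of variance of the methods. Probe sets were taken whatever their number of symbols or averaged within each gene, the component was computed from all probe sets, and each rat was left out in turn. Added after seeing the data were a covariate for the component, a fit to the 8 rats other than the 3 that stood apart, and the omission of probe sets numbered among another chromosome.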

Additional observations from a re-analysis of the deposited data

Results flagged for a closer look

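Among the 38 sets of values tested, the 2 groups of each of 19 named members, 2 held a rat far from the others of its group. In groups not chosen for their spread, about 1 of 20 sets holds such a rat by chance, but several named members were chosen for their spread, so this rate does not apply and the values are a description. Both were sham rat 2. In Snrpf it was the highest sham rat at 5.03, with a gap to the next rat of 0.71 of the range of the group. In Sf3b5 it was the lowest sham rat at 7.41, with a gap of 0.79 of the range. Sham rat 2 is one of the 3 rats that stood apart on the within-group component, and Snrpf went with that component and Sf3b5 against it.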

How the results depend on the processing

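Counts of members at an adjusted p under 0.05 stayed at 0 in limma under the alternatives chosen first, the methods' analysis of variance included, and became 4 with the component as a covariate and 1 without the 3 rats that stood apart. For the other spliceosome genes the count of 0 became 1 with array weights, 8 with the covariate and 1 without the 3 rats. At an unadjusted p under 0.05, the 1 higher member became 0 with a mean of at least 5, median-centred arrays or the intensity trend, 2 after the second quantile normalization, 6 with array weights, 5 with the covariate and 6 without the 3 rats. The 0 lower members became 2 with array weights, 8 with the covariate and 11 without the 3 rats. Over all probe sets these fits also called more, with 10.4% higher and 7.66% lower with array weights, 9.86% and 8.42% with the covariate, and 9.76% and 10.4% without the 3 rats, against 4.96% and 1.87% as deposited. Among the other spliceosome genes, the 6 higher became 3 after median centring and 11 with the covariate, and the 3 lower became 6 after median centring, 5 after the second normalization, 9 with array weights, 13 with the covariate and 16 without the 3 rats.

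The median SD of the members was 0.135, and 0.0828 without the 3 rats. The share of their variance on the component was 81.2%, and 51.3% without these rats on a component taken anew. For the other probe sets the shares were 63.7% and 38.8%. The cause of these changes was not tested. Leaving out 1 rat at a time gave 0 to 0 called members, 0 to 5 higher and 0 to 1 lower at an unadjusted p, and for the other spliceosome genes 0 to 0 called, 4 to 8 higher and 2 to 7 lower. The 5 higher and the 1 lower member came without FPI rat 1, the higher count was 2 without FPI rat 2 or 6 and 0 without FPI rat 3, 4 or 5 or sham rat 2, 3 or 4, and the 7 lower other genes came without FPI rat 3. The SD then ranged from 0.119 to 0.142 and the share from 78.4% to 82.9%.

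Signs that turned belong to values smaller than their standard errors, apart from U2surp. With the replicate block, which takes the replicate number of the labels as a term and leaves FPI rat 6 alone in its block and so without weight, Sf3b1 was at 0.026, Prpf8 at 0.028 and Rbm25 at 0.012, 0 members passed, and 1 other spliceosome gene was lower at an unadjusted p. The labels give no pairing of same-numbered rats, which correlated at -0.65 to 0.11 in their deviations. The component makes up much of these deviations, so the correlations cannot show whether same-numbered rats were handled together. U2surp was at -0.0048 with the mean of its probe sets, of which the second was numbered among another chromosome. Prpf3 was at -0.015 with median-centred arrays and with the second normalization, -0.020 with array weights and -0.020 without the 3 rats, and Prpf8 at 0.014 with the second normalization. Leaving out 1 rat at a time gave -0.018 to 0.021 for Prpf3, -0.27 to 0.069 for Prpf39 (the positive value without sham rat 2), -0.048 to 0.028 for Prpf8, -0.12 to 0.012 for Rbm25 and -0.14 to 0.039 for Sf3b1.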
